A study of Mus musculus with 36 samples.

Results

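The clustered histone genes of the mouse and their linker histone relatives encode the proteins that package DNA into nucleosomes. They were taken as the protein-coding genes of the count table whose symbol begins with Hist1h, Hist2h, Hist3h or Hist4h in the older naming or with H1f, H2ac, H2bc, H3c or H4c in the newer naming, with *H1f0* included. Of 74 genes with such symbols, 3 were not protein-coding, which left 71 of the 54347 genes of the table. There were 10 genes of class H1, 18 of H2A, 18 of H2B, 12 of H3 and 13 of H4, of which 54 lie on chromosome 13, 10 on chromosome 3, 3 on chromosome 6 and 2 each on chromosomes 11 and 15. *H1f0* and *H1f7* on chromosome 15 and *H1f8* and *H1f10* on chromosome 6 lie outside the clusters.

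Histones H2A, H2B, H3 and H4 form the octamer around which DNA is wound, and H1 binds the linker DNA between nucleosomes. Most clustered histone genes lack introns, are transcribed above all while DNA is replicated, and give mRNAs that end just after a conserved stem-loop instead of in a poly(A) tail. *H1f0* encodes the linker histone H1.0, which is made outside S phase from a polyadenylated mRNA, accumulates in cells that have stopped dividing, and has long been known to accumulate in cells treated with butyrate.

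Primary mouse cells of 4 kinds were compared, namely adipocytes differentiated from the stromal vascular fraction of inguinal fat of pooled C57Bl/6 males, macrophages differentiated from bone marrow of C57Bl/6 males, myotubes (also called myocytes) differentiated from hindlimb myoblasts of C57Bl/6 males, and hepatocytes of C57BL/6NHsd males. Each cell type received PBS as control, 5 mM β-hydroxybutyrate (βOHB, the sodium salt of the R form) or 5 mM sodium butyrate for 6 h, with 3 libraries in each of the 12 groups and 36 libraries in all. Butyrate, a short-chain fatty acid, is an inhibitor of histone deacetylases, and βOHB is a ketone body that carries a hydroxyl group on the same carbon chain. The treatment media differed between the cell types, the degree of adipocyte differentiation was judged by eye, and the sources used here do not tell whether the libraries of a group came from separate animals or cultures, so p-values measure only the spread between these libraries, which may be technical.

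Libraries held 18366300 to 23221500 estimated counts. Each cell type carried its own 4 markers, with sums in CPM (counts relative to the scaled library total) of 36908 to 38722 in hepatocyte controls and 40943 to 42927 under butyrate. In the other cell types these sums were lower under butyrate, at 7628 to 8312 in the controls against 6108 to 7466 in adipocytes (3 of 4 markers lowered), 3827 to 3895 against 2393 to 2598 in macrophages (2 lowered) and 16336 to 20281 against 9704 to 13772 in myotubes (3 lowered). Markers of other cell types were also counted. The 4 macrophage markers summed to 133 to 140.3 CPM in adipocyte controls and 86.0 to 108 in hepatocyte controls, with 110.0 to 115 and 97.2 to 118 under butyrate, and the 3 fibroblast markers to 3749 to 4288 CPM in adipocyte controls (3404 to 4408 under butyrate, 1 lowered), 1374 to 1458 in macrophage controls (878 to 1296, none called) and 761 to 916 in myotube controls (822 to 1125, 1 raised). The 4 myotube markers summed to 5.76 to 10.8 CPM in macrophage controls and 17.2 to 45.1 under butyrate (all 4 raised), and the 4 adipocyte markers to 6.79 to 9.21 CPM in hepatocyte controls and 20.7 to 24.4 under butyrate (2 raised). In myotubes the 4 macrophage markers summed to 101, 82.7 and 33.7 CPM in the controls, 20.3, 13.9 and 33.4 under βOHB and 5.77, 24.7 and 12.0 under butyrate, and the 4 hepatocyte markers to at most 0.0440 CPM in the controls but 0.0917, 0 and 23.7 CPM under βOHB and 30.9, 551 and 127 CPM under butyrate. The macrophage and hepatocyte markers in myotubes were at most at 2.61% and 1.47% of the level in their own cells. The part of all these RNAs in the results was not tested beyond leaving out myotube control libraries 1 and 2 and butyrate library 2 where stated. In bulk RNA, fewer cells of a type and less RNA per cell cannot be told apart.

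Many of the members carry the histone stem-loop in their annotated transcripts. A pattern of a 6-base stem, a 4-base loop and the flanking bases was found in those of 46 of the 71 members (64.8%), against 154 of 21951 protein-coding genes (0.702%). It is shown for the members on which the results turn, with the paired stem and the loop in capitals and the number of annotated transcript bases that follow given below.
H1f2: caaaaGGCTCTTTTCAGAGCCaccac
H1f3: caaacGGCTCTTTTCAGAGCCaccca
H1f4: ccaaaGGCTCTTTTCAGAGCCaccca
H2ac24: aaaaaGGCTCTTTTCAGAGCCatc
H2ac6: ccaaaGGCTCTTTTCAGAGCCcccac
H2aw: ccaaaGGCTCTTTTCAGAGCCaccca
H2bc6: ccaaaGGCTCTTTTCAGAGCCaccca
H3c15: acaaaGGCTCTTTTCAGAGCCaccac
H3c4: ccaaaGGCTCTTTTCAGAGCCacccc
H4c9: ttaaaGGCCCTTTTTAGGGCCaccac
H4c8: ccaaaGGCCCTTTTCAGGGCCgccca
The stem of the H1, H2A, H2B and H3 genes shown was identical, and that of both H4 genes differed from it. None was found in the models of *H1f0*, *H1f10*, *H1f1*, *H1f5*, *H2bc4*, *H2bc21* and *H2bc23*. The annotated transcript ran on for 840 bases after the stem-loop in *H1f2*, 4884 in *H1f3*, 1153 in *H1f4*, 2010 in *H2ac6*, 1643 in *H2aw* and 1861 in *H2bc6*, but for only 3 bases in *H2ac24*, where the model ends with the stem-loop.

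The promoters of *H1f0* and of 5 other members raised under butyrate in at least 3 of the 4 cell types are shown from 250 bases before to 50 bases after the RefSeq start (GRCm38.p6), each in the direction of transcription. Capitals mark the CCAAT box, searched as CCAAT, the TATA box, searched as TATAA, and the octamer, searched as ATTTGCAT, each on both strands and also where matches overlap.
H1f0 (chr15:79027962-79028261, plus strand): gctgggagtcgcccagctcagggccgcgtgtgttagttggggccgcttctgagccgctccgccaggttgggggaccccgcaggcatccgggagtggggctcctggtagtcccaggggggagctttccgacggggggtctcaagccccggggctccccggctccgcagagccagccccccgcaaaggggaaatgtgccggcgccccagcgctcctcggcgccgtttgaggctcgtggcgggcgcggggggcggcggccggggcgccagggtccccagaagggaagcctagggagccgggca
H1f2 (chr13:23738557-23738856, plus strand): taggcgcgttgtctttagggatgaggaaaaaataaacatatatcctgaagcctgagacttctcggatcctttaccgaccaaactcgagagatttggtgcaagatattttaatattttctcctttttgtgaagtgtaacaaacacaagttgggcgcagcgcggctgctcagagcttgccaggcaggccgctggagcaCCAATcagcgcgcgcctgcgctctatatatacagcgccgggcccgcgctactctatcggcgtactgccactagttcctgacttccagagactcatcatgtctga
H1f4 (chr13:23622509-23622808, minus strand): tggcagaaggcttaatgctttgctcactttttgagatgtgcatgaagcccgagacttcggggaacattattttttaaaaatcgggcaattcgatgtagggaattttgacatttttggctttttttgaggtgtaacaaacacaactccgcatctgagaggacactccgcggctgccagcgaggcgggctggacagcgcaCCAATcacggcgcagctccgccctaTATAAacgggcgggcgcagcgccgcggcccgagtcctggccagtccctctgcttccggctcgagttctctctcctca
H2ac6 (chr13:23683910-23684209, minus strand): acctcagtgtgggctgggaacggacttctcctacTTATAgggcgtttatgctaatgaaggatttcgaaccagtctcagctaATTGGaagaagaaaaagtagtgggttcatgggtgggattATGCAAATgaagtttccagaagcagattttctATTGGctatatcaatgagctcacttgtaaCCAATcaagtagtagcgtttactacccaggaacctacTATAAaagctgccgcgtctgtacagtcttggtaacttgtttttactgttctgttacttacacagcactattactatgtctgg
H2bc6 (chr13:23585921-23586220, minus strand): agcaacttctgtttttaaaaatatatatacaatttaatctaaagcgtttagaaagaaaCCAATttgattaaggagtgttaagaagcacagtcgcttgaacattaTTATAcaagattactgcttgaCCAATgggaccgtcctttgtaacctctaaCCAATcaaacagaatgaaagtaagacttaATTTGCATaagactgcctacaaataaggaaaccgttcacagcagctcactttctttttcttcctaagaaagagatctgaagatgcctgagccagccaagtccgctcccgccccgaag
H4c9 (chr13:22041313-22041612, minus strand): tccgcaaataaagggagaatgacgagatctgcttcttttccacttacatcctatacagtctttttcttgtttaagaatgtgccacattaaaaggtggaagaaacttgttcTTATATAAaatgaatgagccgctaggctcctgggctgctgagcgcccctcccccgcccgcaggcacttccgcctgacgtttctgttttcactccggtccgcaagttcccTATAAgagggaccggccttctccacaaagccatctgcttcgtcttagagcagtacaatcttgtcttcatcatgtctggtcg
*H1f0* held none of these letters, while *H1f2* and *H1f4* held CCAAT 54 and 52 bases before the start. The *H2ac6* promoter also runs towards *H2bc4*, whose start lies 251 bases away on the other strand, and *H2bc6* has another annotated start (chr13:23621045-23621344 holds that promoter). RefSeq gave 67 promoters for 66 members. CCAAT stood in 82.1% of them against 37.4% of all 32851 promoters, the TATAA letters in 74.6% against 24.9%, and the octamer in 20.9% against 1.74%. Classes differed, since CCAAT was in 100% of the H2A, H2B and H3 promoters, 70.0% of H1 and 25.0% of H4, and the octamer was in 38.9% of H2A, 41.2% of H2B and 0% of the others. A match describes the letters, not a site in use.

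A gene was tested when its CPM exceeded 1 in at least 6 libraries, which 25 of the 71 members did (7 of H1, 5 of H2A, 7 of H2B, 4 of H3 and 2 of H4). The other 46 had mean levels over the 36 libraries of at most 0.470 CPM (median 0.0515), with single libraries of up to 3.72 CPM (*H4c4* under butyrate in adipocytes), and held 0.670% of the members' reads. *H4c17*, *H2bc11* and *H4c18* were the highest of them per kb of exon. Of the 25, 7 (*H1f1*, *H1f5*, *H2bc8*, *H2bc9*, *H2bu2*, *H3c2* and *H3c7*) did not pass on the 24 libraries without butyrate, so that their inclusion rested on the butyrate libraries, whereas 18 passed there too. *H3c2* was the nearest of the 7, with more than 1 CPM in 5 of those 24 libraries. Counts under butyrate are therefore read over the 18.

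Annotated length past the stem-loop went with detection among the 46 members that have one. The median was 371 bases for the 18 that passed and 44 for the 28 that did not, and more than 100 bases followed in 13 of the 18 and 10 of the 28. Detection was by CPM and not per kb, and *H2bc8*, *H2bc9*, *H2bu2*, *H3c2* and *H3c7* passed only through butyrate libraries. Over all members, the median share of 31-base words also found in other genes was 32.6% for those that passed and 61.6% for the others. The part of each in detection was not tested. Whether poly(A) RNA was selected is not given in the sources used here. RNAs without a poly(A) tail were low in these libraries and 1 of them moved with butyrate. *Rn7sk* stood at 0.593, 0.805 and 0.605 CPM in macrophage controls and 9.94, 7.40 and 8.83 under butyrate (a change of 3.71 on the log2 scale, FDR = 3.75e-12 by edgeR), and at 0.908 to 4.39 CPM in the libraries of the other cell types, where it was not called under butyrate. *Rpph1* was at most at 0.782, *Rmrp* at most at 0.121, and *Terc*, *Rny1* and *Rny3* listed at 0 in all 36. Their part in the levels of the histone genes was not tested.

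**Figure D1:**
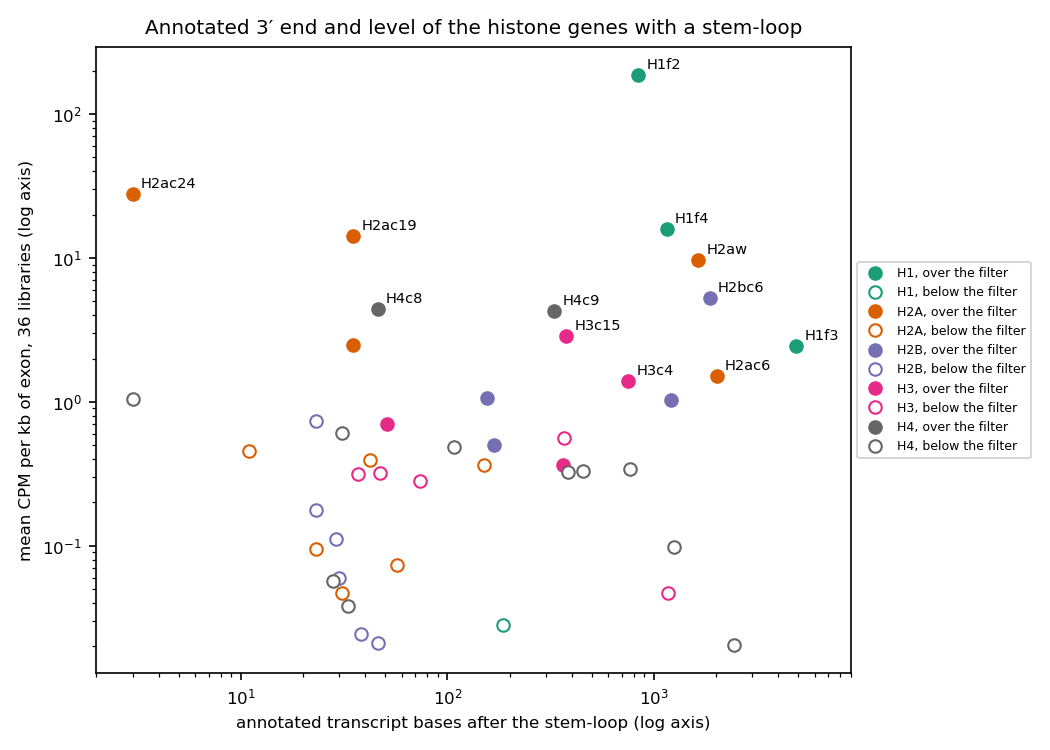
Each point is 1 of the 46 histone genes with a stem-loop, with the annotated transcript bases after the stem-loop on the x axis (log) and the mean CPM per kb of exon over 36 libraries on the y axis (log), filled where the gene passed the filter and coloured by class. H1f2 stands highest at 185 CPM per kb with 840 bases after the loop, and H2ac24 stands at 27.9 with 3 bases.

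Reads of similar members can be shared by the counting. The share of a member's 31-base words that also occur in other genes was 0% for *H1f0* and *H1f10*, 11.4% for *H1f2*, 3.53% for *H1f3*, 34.7% for *H1f4*, 18.2% for *H2bc6* and 32.6% for *H2bc4*, but 93.4% for *H2ac24*, 89.7% for *H2ac18* and 100% for *H2ac19*, whose values are uncertain. *H2bc6* and *H1f4* overlap by 496 exon bases on the same strand (11.2% and 25.7% of their exons, outside their coding parts), *H2aw* shares 708 bases with *Trim17* (33.0%), and *H2ac18* and *H2ac19* lie wholly within antisense models, so these too can exchange reads. Members were therefore also summed within each class, and the sums were tested with the members' own rows taken out.

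Class H1 rose under butyrate in all 4 cell types and held 52.3% to 65.5% of the members' reads in the controls, except 43.6% in macrophages. Its sum stood at 317, 324 and 375 CPM in the control, 279, 222 and 306 under βOHB and 2833, 2875 and 3217 under butyrate in adipocytes. In macrophages the same sum was 82.2, 82.5 and 84.0 CPM in the control, 79.8, 81.6 and 82.0 under βOHB and 1229, 1233 and 1261 under butyrate. In both, the 3 butyrate libraries lay far above all others and the βOHB libraries below the controls, narrowly in macrophages and by more in adipocytes, where library 2 was lowest.

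In myotubes the H1 sum was 220.2, 246 and 246 CPM in the control, 251, 242 and 241 under βOHB and 936, 840.0 and 879 under butyrate. In hepatocytes it was 169.7, 179 and 158 CPM in the control, 168, 186 and 156 under βOHB and 792, 803 and 766 under butyrate. Butyrate libraries again lay above all others without overlap. The change against control was 3.13 ± 0.093 on the log2 scale (8.78-fold, FDR = 1.58e-21) in adipocytes, 3.90 ± 0.10 on the log2 scale (15.0-fold, FDR = 2.71e-23) in macrophages, 1.90 ± 0.089 on the log2 scale (3.73-fold, FDR = 2.76e-17) in myotubes and 2.22 ± 0.090 on the log2 scale (4.67-fold, FDR = 3.7e-19) in hepatocytes, with P-values from the quasi-likelihood test of edgeR adjusted by Benjamini and Hochberg's method (FDR, ± SE). Without the 3 myotube libraries named above the value in myotubes was 1.88, but it then set 1 control library, assumed to vary like the other groups, against 2 butyrate libraries, which still held markers of other cells. The share of H1 in all reads of the members moved from 65.5% to 85.0% in adipocytes, from 43.6% to 88.3% in macrophages, from 52.3% to 75.9% in myotubes and from 64.0% to 89.9% in hepatocytes.

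**Figure D2:**
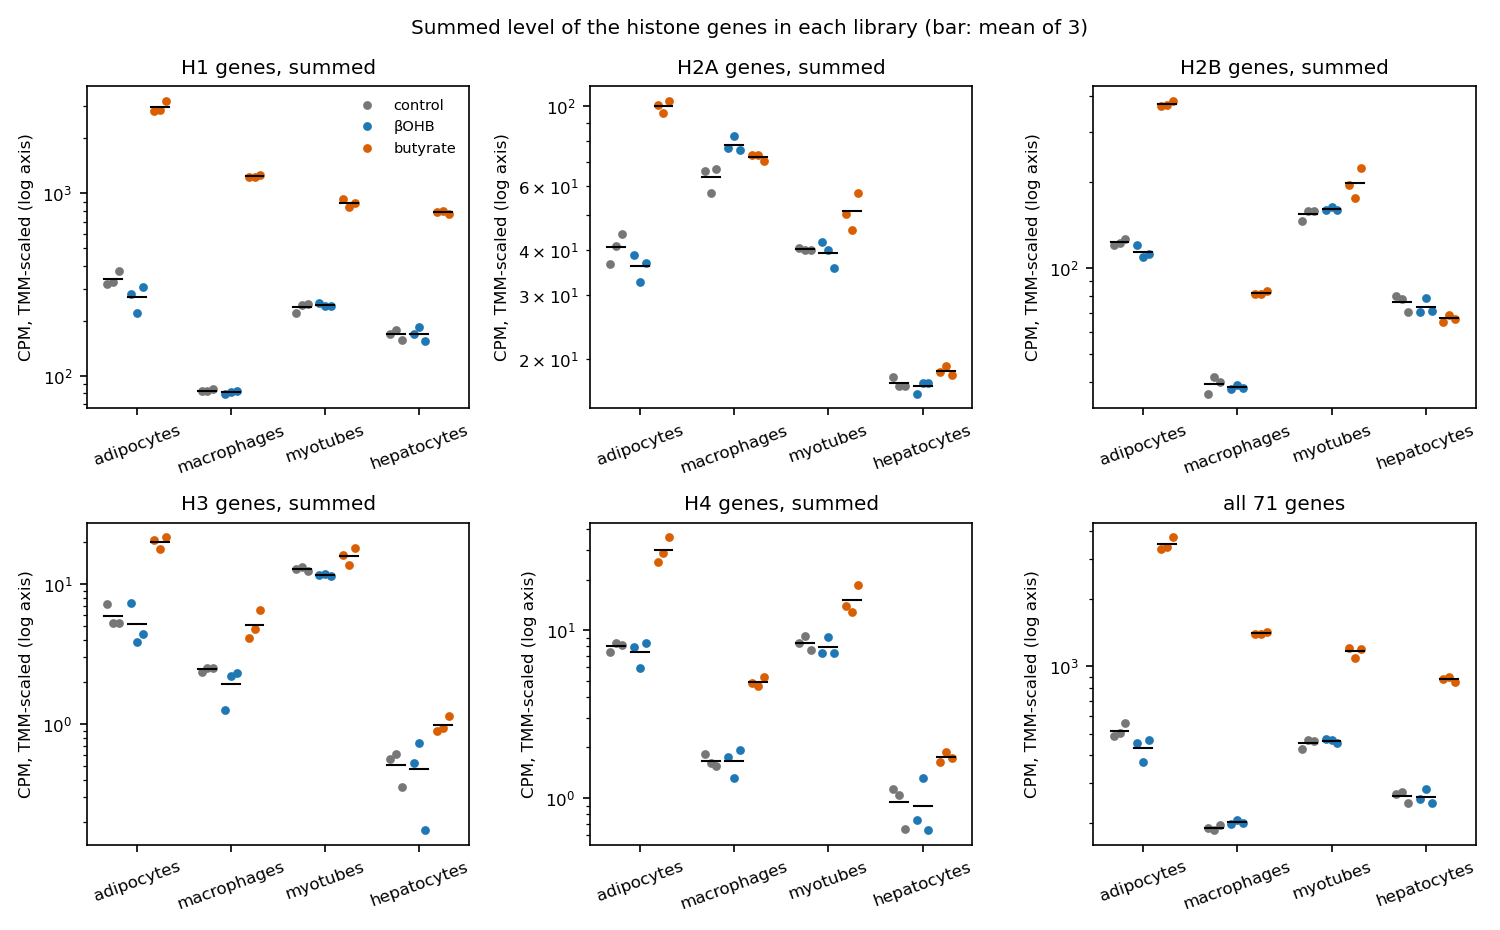
Summed CPM of the histone genes of each class, a point per library with a bar at the mean of 3, by cell type and treatment, on log axes. The H1 sum under butyrate sits at 2833 to 3217 CPM in adipocytes and 1229 to 1261 in macrophages, above every control and βOHB library of the same cell type.

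*H1f0* (ENSMUSG00000096210, GRCm38 chr15:79028450-79030504, plus strand) carried 44.0% of the H1 sum over all libraries. It stood at 99.8, 100.2 and 105 CPM in the control, 86.7, 86.4 and 90.7 under βOHB and 852, 848 and 917 under butyrate in adipocytes. Macrophages had 42.2, 41.6 and 45.5 CPM in the control, 42.4, 45.2 and 41.1 under βOHB and 659.7, 641 and 643 under butyrate. The control and βOHB libraries of macrophages overlapped, those of adipocytes did not, and the butyrate libraries were far above both.

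Levels of *H1f0* in myotubes were 104, 111 and 115 CPM in the control, 114, 109.6 and 110.5 under βOHB and 465, 435 and 419 under butyrate. Hepatocytes had 118, 120.5 and 105 CPM in the control, 113, 119.6 and 102 under βOHB and 602, 628 and 582 under butyrate. The change under butyrate was 3.10 ± 0.065 on the log2 scale (8.56-fold, FDR = 2.24e-25) in adipocytes, 3.91 ± 0.068 on the log2 scale (15.0-fold, FDR = 1e-27) in macrophages, 2.00 ± 0.062 on the log2 scale (4.00-fold, FDR = 1.2e-20) in myotubes and 2.40 ± 0.064 on the log2 scale (5.28-fold, FDR = 2.82e-23) in hepatocytes (edgeR). Macrophages started lowest and, under butyrate, reached levels above those of myotubes and hepatocytes and below those of adipocytes.

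*H1f2* (Hist1h1c, ENSMUSG00000036181, chr13:23738808-23740367, plus strand), which encodes linker histone H1.2, carried 46.4% of the H1 sum. Adipocytes had 199, 202 and 245 CPM in the control, 174, 123 and 191 under βOHB and 1526, 1566 and 1754 under butyrate. In macrophages it stood at 35.3, 36.8 and 35.7 CPM in the control, 33.3, 33.1 and 36.2 under βOHB and 531, 549.8 and 576 under butyrate. Butyrate libraries were clear of the rest in both, and the adipocyte βOHB libraries all lay below the controls.

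For *H1f2* in myotubes the libraries read 96.4, 111 and 108 CPM in the control, 115, 111 and 109 under βOHB and 375, 329 and 360.5 under butyrate. In hepatocytes they read 50.9, 57.1 and 52.0 CPM in the control, 55.0, 65.2 and 53.3 under βOHB and 179, 165 and 173 under butyrate. The rise under butyrate was 2.91 ± 0.11 on the log2 scale (7.50-fold, FDR = 1.83e-19) in adipocytes, 3.94 ± 0.12 on the log2 scale (15.4-fold, FDR = 4.46e-22) in macrophages, 1.76 ± 0.11 on the log2 scale (3.38-fold, FDR = 7.9e-15) in myotubes and 1.69 ± 0.11 on the log2 scale (3.23-fold, FDR = 1.67e-14) in hepatocytes (edgeR). In hepatocytes *H1f0* took 67.8% of the H1 sum in the controls and 76.8% under butyrate.

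*H1f3* (Hist1h1d, ENSMUSG00000052565, chr13:23553262-23560686, plus strand) and *H1f4* (Hist1h1e, ENSMUSG00000051627, chr13:23620629-23622558, minus strand) encode linker histones H1.3 and H1.4. *H1f4* in adipocytes read 9.56, 11.1 and 13.4 CPM in the control, 9.74, 5.23 and 13.0 under βOHB and 254, 250.2 and 284 under butyrate. *H1f3* in adipocytes read 3.11, 4.26 and 3.80 CPM in the control, 3.72, 2.48 and 4.86 under βOHB and 154, 161 and 198 under butyrate. For both, control and βOHB libraries overlapped at low levels and the butyrate libraries stood apart.

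The fitted changes in adipocytes were 4.53 ± 0.17 on the log2 scale (23.1-fold, FDR = 1.22e-19) for *H1f4* and 5.52 ± 0.15 on the log2 scale (45.8-fold, FDR = 2.4e-22) for *H1f3*. In macrophages *H1f4* went from 0.254, 0.151 and 0.130 to 6.17, 5.73 and 5.70 CPM (31.6-fold, FDR = 6.75e-12) and *H1f3* from 0.847, 0.956 and 0.778 to 11.4, 12.5 and 11.7 CPM (13.8-fold, FDR = 1.14e-15). These *H1f4* controls were near the limit of detection, so the size of that fold is uncertain. Myotubes had 9.76, 12.4 and 12.6 CPM of *H1f4* in the controls and 60.1, 43.5 and 60.5 under butyrate (4.71-fold, FDR = 4.17e-13). In hepatocytes both genes were near the limit of detection, with *H1f4* at 0.251, 0.123 and 0.118 CPM in the controls and 1.69, 0.941 and 1.44 under butyrate (8.02-fold, FDR = 0.000209) and *H1f3* at 0, 0 and 0.177 against 1.96, 2.23 and 1.68, where no fold is given because the controls hold so few counts. The overlap with *H2bc6* touches the *H1f4* values.

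*H1f10* (chr6:87980421-87981637, minus strand) encodes linker histone H1.10 and lies outside the clusters. It stood at 5.67, 6.16 and 6.88 CPM in the control, 4.87, 3.96 and 6.48 under βOHB and 42.4, 46.2 and 60.4 under butyrate in adipocytes. Hepatocytes had 0.752, 0.799 and 0.473 CPM in the control, 0.368, 0.421 and 0.117 under βOHB and 6.83, 6.04 and 6.96 under butyrate. No control or βOHB library reached a butyrate library in either cell type. The rise was 7.97-fold in adipocytes (FDR = 1e-16), 7.66-fold in macrophages (2.21e-15), 2.93-fold in myotubes (3.27e-10) and 9.75-fold in hepatocytes (4.98e-12). *H1f1* and *H1f5* passed the filter only through butyrate, with at most 0.440 CPM of *H1f1* and 0.135 CPM of *H1f5* in any control library or βOHB library except *H1f1* in 1 βOHB library of myotubes at 0.642 CPM.

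**Figure D3:**
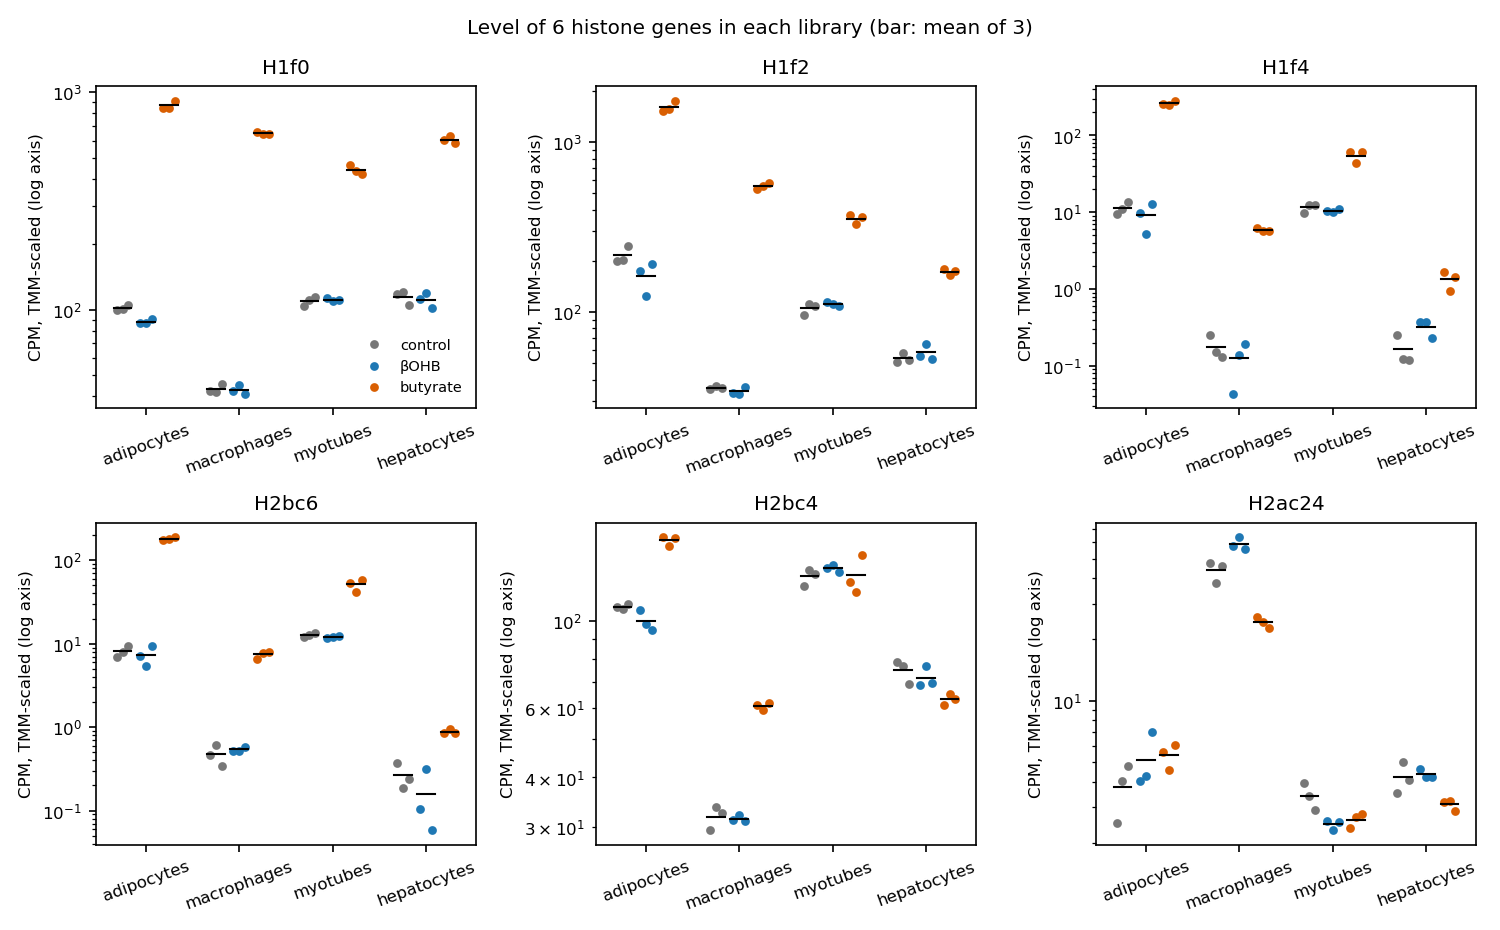
CPM of 6 histone genes in each library, a point per library with a bar at the mean of 3, by cell type and treatment, on log axes. H1f0, H1f2 and H2bc6 are higher in every butyrate library than in any control library of the same cell type, with H1f0 at 852, 848 and 917 CPM in butyrate-treated adipocytes against 99.8 to 105 in the controls.

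Class H2A changed less, and its members moved in different directions. *H2ac24* (Hist1h2ap, ENSMUSG00000094777, chr13:21833026-21833507, minus strand), whose annotated transcript ends 3 bases after the stem-loop, stood at 47.4, 38.1 and 45.8 CPM in the control, 57.7, 63.7 and 55.5 under βOHB and 25.9, 24.5 and 22.9 under butyrate in macrophages. Each of the 3 treatments formed a separate range there, with βOHB highest and butyrate lowest. Adipocytes had 2.51, 4.00 and 4.77 CPM in the control, 4.02, 4.28 and 6.98 under βOHB and 5.61, 4.57 and 6.05 under butyrate, with the control range reaching into both other ranges.

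*H2ac24* fell under butyrate in macrophages, with a change of -0.84 ± 0.13 on the log2 scale (0.558-fold, FDR = 9.07e-07). In adipocytes it rose by 0.52 ± 0.18 on the log2 scale (1.43-fold, FDR = 0.0144), a call that was lost without control library 1, where the value was 0.30. The values in myotubes (-0.39, FDR = 0.0957) and hepatocytes (-0.43, FDR = 0.0765) did not pass. As 93.4% of its 31-base words occur in other genes, these levels may belong in part to its copies.

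*H2aw* (Hist3h2a, ENSMUSG00000078851, chr11:58954685-58956830, plus strand) carried 43.2% of the H2A sum. It stood at 16.3, 16.2 and 15.9 CPM in the control, 15.7, 12.1 and 11.8 under βOHB and 56.1, 48.6 and 53.3 under butyrate in adipocytes. In macrophages it stood at 14.7, 15.4 and 17.5 CPM in the control, 15.4, 16.2 and 15.9 under βOHB and 42.7, 44.7 and 42.8 under butyrate. The butyrate libraries were above all others in both cell types.

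*H2aw* rose by 3.26-fold in adipocytes (FDR = 1.96e-16), 2.73-fold in macrophages (5.52e-15), 1.41-fold in myotubes (1.22e-05) and 1.46-fold in hepatocytes (9.72e-05). *H2ac6* (Hist1h2ac, chr13:23681467-23683948, minus strand) read 2.73, 1.98 and 3.12 CPM in the control, 1.54, 1.64 and 1.53 under βOHB and 20.4, 19.0 and 22.3 under butyrate in adipocytes, a rise of 2.98 ± 0.17 on the log2 scale (7.87-fold, FDR = 2.91e-15). *H2ac19*, wholly shared with its copy, read 14.8, 16.1 and 17.8 CPM in the control, 13.3, 10.2 and 13.7 under βOHB and 15.6, 19.3 and 16.8 under butyrate in adipocytes and passed in none of the 4 comparisons, with changes between -0.30 in hepatocytes and 0.089 in adipocytes.

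The summed H2A level therefore hid opposite changes in macrophages. It stood at 66.2, 57.5 and 66.9 CPM in the control, 76.6, 82.6 and 75.5 under βOHB and 73.1, 73.3 and 70.5 under butyrate there. Butyrate and control ranges did not overlap, but the fitted change was only 0.18 ± 0.074 on the log2 scale (1.14-fold, FDR = 0.0296), it no longer passed without control library 2 (0.12), and it reversed to -0.72 when *H2aw*, the member of highest mean count, was left out. In adipocytes the sum was 36.7, 41.0 and 44.2 CPM in the control, 38.8, 32.7 and 36.9 under βOHB and 100.4, 95.9 and 104 under butyrate and rose by 1.30 ± 0.075 on the log2 scale (2.46-fold, FDR = 3.33e-15). It rose by 0.35 ± 0.076 on the log2 scale (1.27-fold, FDR = 0.000202) in myotubes, where leaving out *H2aw* gave 0.20 and no call, and changed by 0.11 (95% interval -0.074 to 0.30, FDR = 0.294) in hepatocytes.

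Class H2B was led by *H2bc4* (Hist1h2bc, ENSMUSG00000018102, chr13:23684199-23692908, plus strand), without a stem-loop in its model and with 73.2% of the class sum. It stood at 108, 108 and 111 CPM in the control, 107, 98.5 and 94.9 under βOHB and 164, 156 and 163 under butyrate in adipocytes. Hepatocytes had 78.9, 77.0 and 69.1 CPM in the control, 68.7, 77.0 and 69.8 under βOHB and 61.2, 65.3 and 63.4 under butyrate. Butyrate libraries were the highest in adipocytes and the lowest in hepatocytes, without overlap with the controls in either.

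*H2bc4* rose by 0.56 ± 0.063 on the log2 scale (1.48-fold, FDR = 5.44e-09) in adipocytes and 0.94 ± 0.068 on the log2 scale (1.91-fold, FDR = 3.69e-13) in macrophages, and fell in hepatocytes, with a change of -0.24 ± 0.067 on the log2 scale (0.844-fold, FDR = 0.00196) by edgeR. The value in myotubes was 0.0078 (95% interval -0.12 to 0.14, FDR = 0.924). Scaled by library totals alone, the myotube value was 0.15 and passed.

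*H2bc6* (Hist1h2be, ENSMUSG00000047246, chr13:23583670-23621124, minus strand) moved by far more than *H2bc4*. In adipocytes it stood at 6.84, 8.05 and 9.45 CPM in the control, 7.09, 5.39 and 9.36 under βOHB and 173, 181 and 189 under butyrate. Macrophages had 0.466, 0.604 and 0.346 CPM in the control, 0.523, 0.515 and 0.580 under βOHB and 6.64, 7.83 and 7.90 under butyrate. The butyrate libraries held many times the level of any other library in both.

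In myotubes *H2bc6* read 12.0, 12.7 and 13.6 CPM in the control, 11.8, 12.1 and 12.4 under βOHB and 53.6, 41.4 and 58.7 under butyrate. Hepatocytes had 0.376, 0.184 and 0.236 CPM in the control, 0.105, 0.316 and 0.0584 under βOHB and 0.847, 0.941 and 0.840 under butyrate, where all values were low, the control and βOHB ranges overlapped and the butyrate libraries lay above both. Its rise was 4.48 ± 0.13 on the log2 scale (22.3-fold, FDR = 8.99e-22) in adipocytes, 3.99 ± 0.25 on the log2 scale (15.8-fold, FDR = 8.58e-15) in macrophages, 2.00 ± 0.12 on the log2 scale (4.01-fold, FDR = 1.14e-14) in myotubes and 1.71 ± 0.49 on the log2 scale (3.27-fold, FDR = 0.00292) in hepatocytes. *H2bc6* made up 6.55% of the H2B sum in adipocyte controls and 48.2% under butyrate, while *H2bc4* went from 88.2% to 42.8%. In hepatocytes the *H2bc6* share stayed low, at 0.347% and 1.31%, and that of *H2bc4* went from 98.4% to 94.7%.

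*H2bc21* (Hist2h2be, chr3:96221119-96223738, plus strand) read 3.20, 4.82 and 3.88 CPM in adipocyte controls and 13.6, 14.4 and 14.3 under butyrate, a 3.55-fold rise (FDR = 1.01e-12). It also rose in macrophages (1.55-fold, FDR = 0.000169) and hepatocytes (1.92-fold, 0.00231), and not past the threshold in myotubes (0.21, 0.159). The H2B sum stood at 121, 123 and 127 CPM in the control, 121, 109 and 112 under βOHB and 369, 372 and 386 under butyrate in adipocytes and rose by 1.61 ± 0.065 on the log2 scale (3.04-fold, FDR = 9.66e-19). It rose by 2.08-fold in macrophages (FDR = 2e-14) and 1.29-fold in myotubes (1.02e-05), and fell in hepatocytes, with a change of -0.19 ± 0.067 on the log2 scale (0.877-fold, FDR = 0.0147).

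Both small H2B changes rested on single members. The myotube rise was 0.059 and not called without *H2bc6*. The hepatocyte fall turned into a rise of 1.50 without *H2bc4*, and it missed the threshold without butyrate library 1 (-0.17), control library 1 (-0.16) or control library 2 (-0.17).

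Classes H3 and H4 were the lowest, with most members under the filter. *H3c4* (Hist1h3d, chr13:23575763-23577011, plus strand) stood at 0.952, 0.517 and 0.759 CPM in the control, 0.940, 0.634 and 0.630 under βOHB and 5.02, 4.90 and 5.33 under butyrate in adipocytes and 2.15, 2.99 and 2.86 CPM in the control, 2.80, 2.71 and 2.70 under βOHB and 6.22, 5.42 and 7.10 under butyrate in myotubes. *H3c15* (Hist2h3c2, chr3:96238108-96239127, minus strand) stood at 5.23, 3.87 and 3.46 CPM in the control, 3.72, 2.54 and 3.02 under βOHB and 6.80, 5.31 and 6.86 under butyrate in adipocytes and 6.83, 6.55 and 5.71 CPM in the control, 5.78, 5.02 and 5.67 under βOHB and 5.28, 4.97 and 5.14 under butyrate in myotubes. The butyrate range of *H3c4* was above the controls in both cell types, and that of *H3c15* lay above them in adipocytes and below them in myotubes.

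*H3c4* rose by 6.80-fold in adipocytes (FDR = 1.13e-11), 3.62-fold in macrophages (8.07e-07) and 2.33-fold in myotubes (1.32e-06). In hepatocytes it was at 0 in all 3 control libraries and at 0.106, 0.0990 and 0.0600 CPM under butyrate. *H3c15* rose in adipocytes (1.51-fold, FDR = 0.00717, not called without control library 3), and its values of 0.13, -0.31 and -0.085 in macrophages, myotubes and hepatocytes did not pass.

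*H4c9* (Hist1h4i, chr13:22040636-22041362, minus strand) stood at 1.95, 2.75 and 2.66 CPM in the control, 2.26, 1.64 and 2.43 under βOHB and 10.0, 12.4 and 13.0 under butyrate in adipocytes and 4.03, 3.92 and 3.25 CPM in the control, 2.89, 3.20 and 3.28 under βOHB and 6.99, 7.07 and 8.18 under butyrate in myotubes. *H4c8* (Hist1h4h, chr13:23531050-23531519, plus strand) stood at 4.02, 4.22 and 4.01 CPM in the control, 4.15, 3.17 and 4.10 under βOHB and 6.35, 7.12 and 9.14 under butyrate in adipocytes and 2.38, 3.30 and 2.24 CPM in the control, 2.29, 3.28 and 2.17 under βOHB and 2.93, 2.06 and 4.16 under butyrate in myotubes. *H4c9* was higher in every butyrate library of both cell types, and *H4c8* was so in adipocytes, while its ranges in myotubes overlapped.

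*H4c9* rose in all 4 cell types, by 4.81-fold in adipocytes (FDR = 2.49e-12), 2.50-fold in macrophages (5.5e-06), 1.98-fold in myotubes (9.98e-06) and 2.73-fold in hepatocytes (0.00269). *H4c8*, whose transcript ends 46 bases after the stem-loop against 330 in *H4c9*, rose in adipocytes (1.85-fold, FDR = 0.000361) and gave 1.17, 0.20 and 0.085 elsewhere, which did not pass. In myotubes the H3 sum changed by 0.31 (95% interval -0.027 to 0.65, FDR = 0.098), and without butyrate library 2 it passed at 0.42.

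The H3 sum rose by 3.39-fold in adipocytes (FDR = 5.04e-10) and 2.08-fold in macrophages (9.88e-05), and the H4 sum by 3.76-fold in adipocytes (1.09e-12), 2.94-fold in macrophages (6.73e-08), 1.79-fold in myotubes (9.61e-06) and 1.87-fold in hepatocytes (0.0089). In hepatocytes, with sums of 1.13, 1.04 and 0.650 CPM in the controls and 1.64, 1.88 and 1.74 under butyrate, the H4 call was lost without control library 3 (0.69). The H3 sum there was 0.564, 0.614 and 0.354 against 0.900, 0.941 and 1.14 CPM, a change of 0.95 (95% interval 0.042 to 1.86, FDR = 0.0632). It was called with DESeq2 (0.97), with no filter (0.96), with the replicate block (0.94), in the 9 hepatocyte libraries alone (1.02) and without its highest member (1.75).

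**Figure D4:**
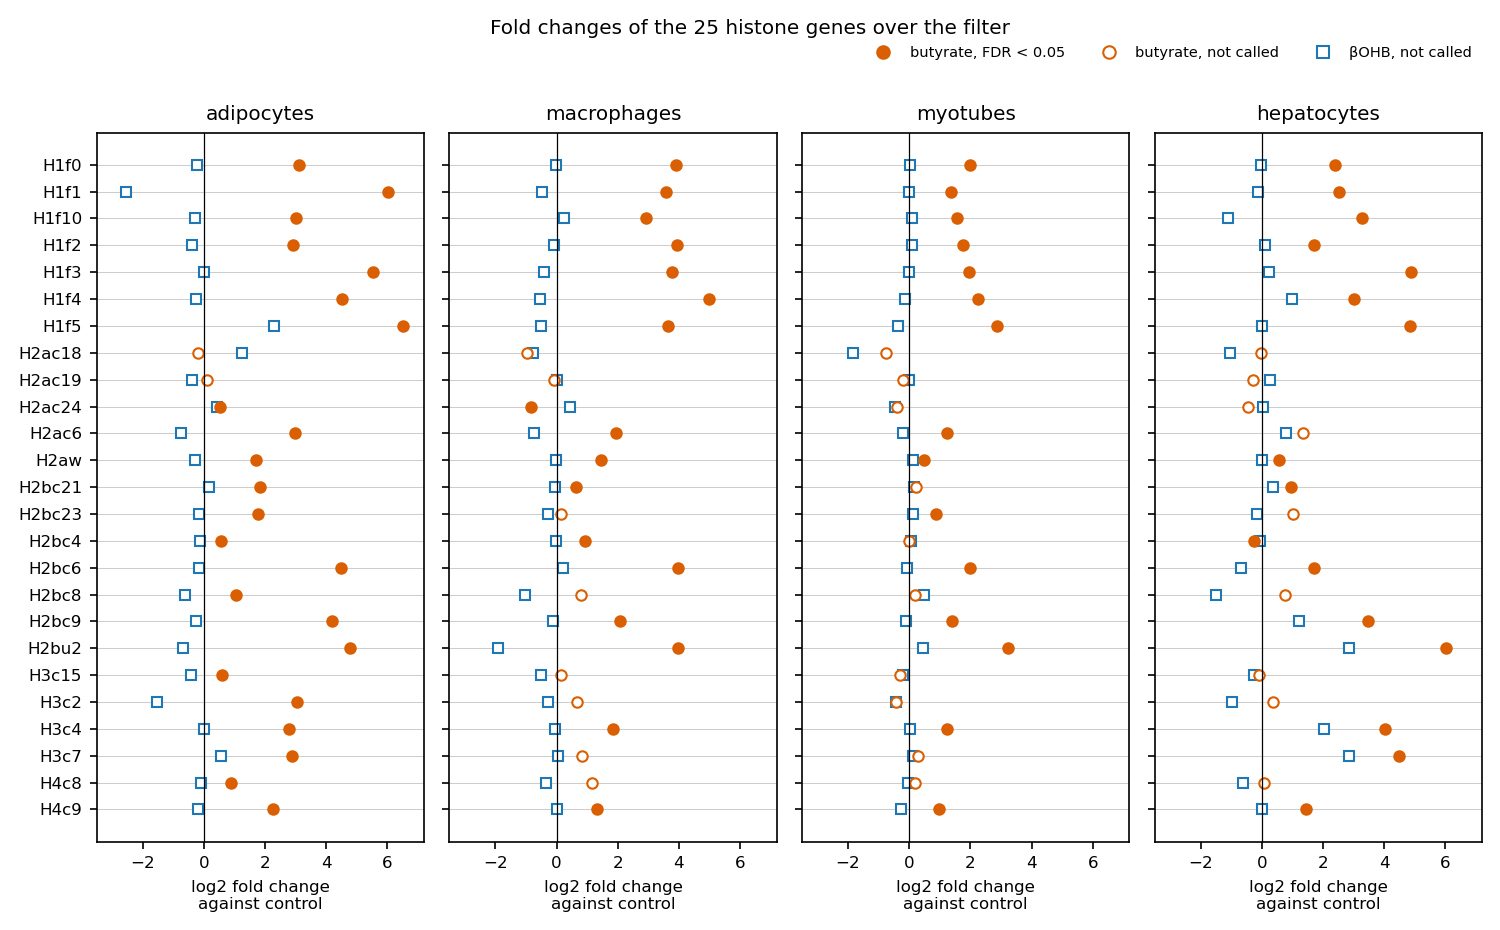
Fitted log2 fold change against control (x axis) of the 25 histone genes over the filter (rows) in each cell type, with filled circles for butyrate at an FDR below 0.05, open circles for butyrate not called and squares for βOHB. The H1 genes and H2bc6 lie to the right under butyrate in all 4 cell types while no square is called. Fitted folds of genes at or near 0 in the controls, such as H2bu2, H3c7 and H3c4 in hepatocytes, depend on a prior count and are no bounds.

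Of the 18 members that passed without the butyrate libraries, 16 rose and 0 fell under butyrate in adipocytes, where 30.7% of all tested genes rose and 30.3% fell. In macrophages 12 rose and 1 (*H2ac24*) fell, against 31.9% and 33.2% of all genes. Myotubes had 11 raised and 0 lowered, against 33.1% and 33.4%, and hepatocytes 10 raised and 1 (*H2bc4*) lowered, against 31% and 32.4%. On the 9 libraries of each cell type alone, 16, 10, 20 and 7 members passed the filter in the same order. Several of the 18 were therefore low in macrophages and hepatocytes. At an unadjusted P below 0.05 the lowered members in adipocytes and myotubes were 0 as well, as they were by DESeq2 and limma-voom over the 25. The median change of the 18 was 2.05 in adipocytes, 1.39 in macrophages, 0.94 in myotubes and 1.19 in hepatocytes (1.04 without *H3c4*, whose controls were at 0), while the median of all tested genes lay at 0 or close to it.

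Under βOHB no histone gene over the filter passed an FDR of 0.05. Among the 25 tested, edgeR called 0 in adipocytes, macrophages, myotubes and hepatocytes, and DESeq2 and limma-voom also called 0, where 0.00652%, 0%, 2.91% and 0.00652% of all genes were called by edgeR. With no filter on low counts edgeR called 3 members in adipocytes, 1 in macrophages and 2 in myotubes. The share of all genes called in that fit was not recomputed, and it also tested members with few counts, so these calls are not read as responses. A threshold of an unadjusted P below 0.001 called *H1f2* in adipocytes. At an unadjusted P below 0.05 there were 2 of the 25 higher and 5 lower in adipocytes (3.48% and 3.67% of all genes), 1 and 1 in macrophages (1.15% and 1.18%), 0 and 1 in myotubes (6.71% and 7.01%) and 0 and 1 in hepatocytes (3.01% and 2.5%). Both compounds were compared with the same control libraries, so their values are set side by side here and not related to each other.

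The smallest P of a single member under βOHB was that of *H1f2* in adipocytes, at -0.41 (95% interval -0.62 to -0.20, unadjusted P = 0.000449, FDR = 0.492 by edgeR). *H1f0* was at -0.21 there (-0.34 to -0.086, unadjusted P = 0.00174, FDR = 0.506), and the H1 sum at -0.33 (-0.51 to -0.16, unadjusted P = 0.000537, FDR = 0.495), by edgeR. βOHB library 2 was the lowest of the 3 for *H1f2*, at 123 CPM. The 95% intervals of *H1f0* were -0.14 to 0.12 in macrophages, -0.11 to 0.14 in myotubes and -0.17 to 0.087 in hepatocytes.

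*H2ac24* had a higher level under βOHB than in the control in every macrophage library, with a change of 0.43 (0.18 to 0.68, unadjusted P = 0.0015, FDR = 1), and the H2A sum was at 0.30 (0.15 to 0.45, unadjusted P = 0.000347, FDR = 1), by edgeR. In myotubes, where βOHB changed the most genes of the table, the class sums were at 0.043 for H1, -0.035 for H2A, 0.061 for H2B, -0.15 for H3 and -0.087 for H4, with an interval for H1 of -0.13 to 0.22. Hepatocytes had 0.010 for the H1 sum (-0.17 to 0.19). A P that misses the threshold does not show that a level was unchanged.

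Butyrate and βOHB were then compared directly in each of the 4 cell types at the same dose and time. The H1 sum was higher with butyrate by 3.47 in adipocytes (95% interval 3.28 to 3.66, 11.1-fold, FDR = 1.99e-22), 3.93 in macrophages (3.74 to 4.13, 15.3-fold, 2.26e-23), 1.86 in myotubes (1.67 to 2.04, 3.62-fold, 4.37e-17) and 2.21 in hepatocytes (2.03 to 2.40, 4.63-fold, 4.19e-19). *H1f0* differed by 3.31, 3.92, 1.98 and 2.44 in the same order, and *H2bc6* by 4.62, 3.78, 2.08 and 2.39. The compound with the hydroxyl group gave the lower level of these genes in each cell type.

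Not every class separated the compounds. The H2A sum differed by -0.11 in macrophages (-0.26 to 0.036, FDR = 0.176) and 0.14 in hepatocytes (-0.041 to 0.33, 0.172), and the H2B sum by -0.13 in hepatocytes (-0.27 to 0.0049, 0.0868), none past the threshold. Their members went different ways, since without the member of highest mean count the H2A difference in macrophages was -1.11 and called, and the H2B difference in hepatocytes turned to 1.29 and was called. *H2ac24* was lower with butyrate than with βOHB in macrophages, with a difference of -1.27 ± 0.13 on the log2 scale (0.414-fold, FDR = 3.43e-10). The H2B difference of 0.30 in myotubes (FDR = 0.000122) was -0.014 without *H2bc6*, and the H3 difference of 0.46 (FDR = 0.0172) was not called without butyrate library 3 (0.37). In hepatocytes the H3 difference of 1.01 (FDR = 0.044) was lost on leaving out any of 5 single libraries, down to 0.64 without βOHB library 3.

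Over the 18 members, 15 were higher and 0 lower with butyrate than with βOHB in adipocytes (30% and 29.5% of all genes), 14 and 1 in macrophages (31.8% and 32.8%), 10 and 0 in myotubes (33.1% and 32.9%) and 9 and 2 in hepatocytes (30.5% and 33%). The lowered members were *H2ac24* in macrophages and *H2ac24* (-0.49, FDR = 0.041) and *H2bc4* (-0.18, FDR = 0.0179) in hepatocytes. The hepatocyte count of 2 fell to 0 or 1 without any 1 of the 6 libraries compared, to 1 with RLE scaling, limma-voom or the 9 hepatocyte libraries alone, and to 0 with library totals or P below 0.001. The counts of 0 were also 0 at an unadjusted P below 0.05 and, over the 25, by DESeq2 and limma-voom.

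**Figure D5:**
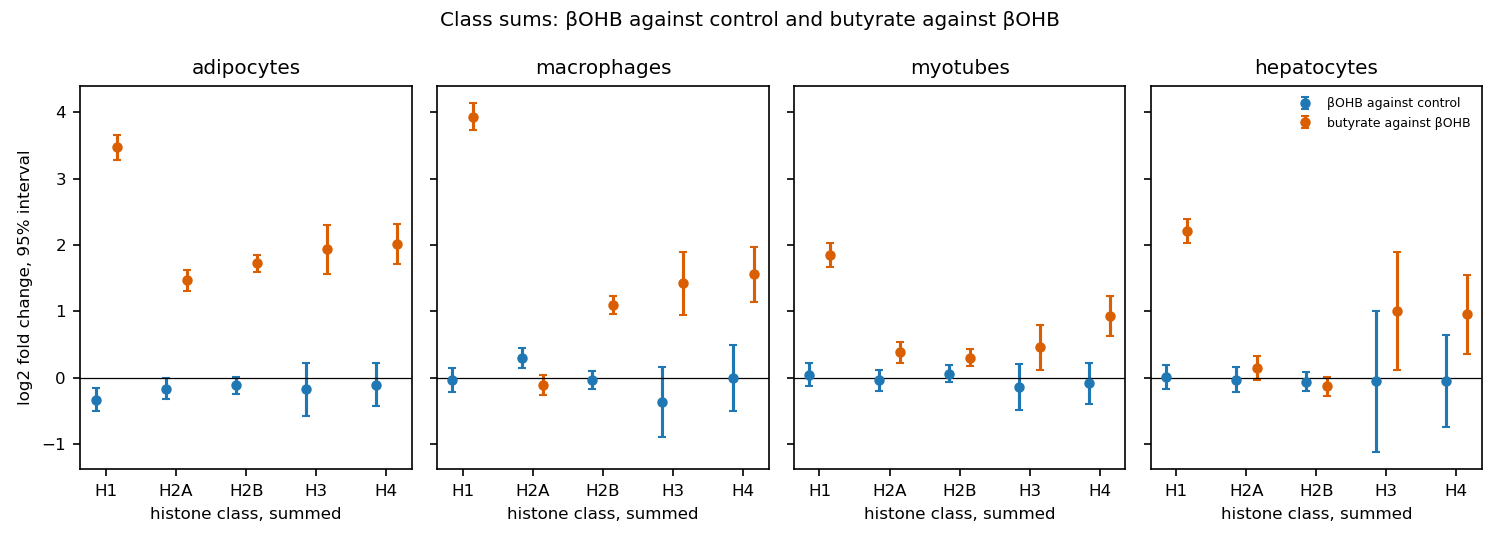
Log2 fold change of the class sums (y axis, with 95% intervals) for βOHB against control and butyrate against βOHB in each cell type. The H1 sum differs between the compounds by 3.47, 3.93, 1.86 and 2.21 in adipocytes, macrophages, myotubes and hepatocytes, and the values for βOHB against control include -0.33 for H1 in adipocytes and 0.30 for H2A in macrophages, whose intervals leave out 0 though neither passed the FDR.

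In the PBS controls the cell types also differed. On the scale of log2 differences of a cell type's controls from the mean of the other 3 cell types, which assumes that the TMM scaling holds between cell types, the 5 members over 1 CPM in all 24 libraries without butyrate (*H1f0*, *H1f2*, *H2ac24*, *H2aw* and *H2bc4*) are counted, because others passed the filter through the cell types in which they are high. Of the 5, 4 were higher and 1 lower in adipocytes (37.2% and 35.2% of all genes), 2 and 3 in macrophages (39.3% and 39.5%), 4 and 1 in myotubes (42% and 39.1%) and 1 and 3 in hepatocytes (41.1% and 43%). The H1 sum differed by 1.18, -1.52, 0.50 and -0.16 in adipocytes, macrophages, myotubes and hepatocytes, all called, the last not without any of 6 single libraries (-0.11 without hepatocyte control 3). The H3 sum differed by 1.22 in adipocytes, 2.72 in myotubes and -3.48 in hepatocytes, and was not called in macrophages (-0.46). The H4 sum differed by 1.76 in adipocytes, -1.26 in macrophages, 1.85 in myotubes and -2.36 in hepatocytes, all called.

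*H1f0* was at 102 ± 3.15 CPM in adipocyte controls, 43.1 ± 2.14 in macrophages, 110.0 ± 5.64 in myotubes and 114 ± 8.24 in hepatocytes (SD, n = 3). Hepatocytes, myotubes and adipocytes came close to each other, with overlapping ranges between neighbours in that order, and macrophages stood apart below them. *H1f4* was over 1 CPM without butyrate in 12 libraries, those of adipocytes and myotubes, and passed the filter through them, so its values are a description, with 4.00 in adipocytes and 4.03 in myotubes against -3.92 in macrophages and -4.11 in hepatocytes.

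*H2ac24* was highest in macrophages. It was 3.53 higher in macrophages than in the mean of the others (FDR = 2.21e-23 by edgeR). The lower values in the other 3 cell types were set against means that include macrophages, so they are no separate results. *H2ac24* took 68.7% of the H2A sum in macrophage controls and 33.8% under butyrate. *H2bc4*, on the other hand, was lowest in macrophages (-1.68).

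The response to butyrate itself differed between cell types. As the difference of a cell type's change from the mean change of the other 3, 10 of the 18 members were higher and 0 lower in adipocytes (17% and 15.9% of all genes), 6 and 1 in macrophages (19% and 20.8%), 0 and 12 in myotubes (20.4% and 21.6%) and 1 and 5 in hepatocytes (22.1% and 24.2%). Some of the 18, such as *H1f3* and *H3c4*, were at or near 0 in hepatocyte controls, so their differences between cell types are uncertain. The counts of 0 stayed 0 at an unadjusted P below 0.05 and, over the 25, by DESeq2 and limma-voom. The single higher member in hepatocytes was *H1f10*, by 0.79 (FDR = 0.0464), a call lost with limma-voom, with library totals and without any 1 of 13 of the 24 control and butyrate libraries.

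*H1f0* responded by 1.41 more in macrophages (FDR = 1.08e-15), -1.14 in myotubes (7.92e-14) and -0.60 in hepatocytes (2.68e-08), where a negative value is a smaller rise. *H2bc6* responded by 1.91 more in adipocytes (FDR = 6.58e-06) and 1.26 more in macrophages (0.00643), and by -1.78 in hepatocytes (0.0196). Its fitted rise in myotubes, given above, was also smaller than in adipocytes and macrophages. Over classes, the H1 response was larger in macrophages (1.48) and the responses of H2A (1.08) and H2B (1.19) were larger in adipocytes than in the mean of the others.

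Other genes of histone biology are read against all tested genes, of which 30.7% rose and 30.3% fell in adipocytes, 31.9% and 33.2% in macrophages, 33.1% and 33.4% in myotubes and 31% and 32.4% in hepatocytes, and a share near these is no result about a list. Of 9 replication-independent histone genes, which make histone variants outside S phase, 4 rose and 2 fell under butyrate in adipocytes, 3 and 3 in macrophages, 2 and 2 in myotubes and 3 and 3 in hepatocytes. *H3f3b* (histone H3.3) rose by 1.46 in macrophages and *H2az2* by 1.00 in hepatocytes, while *H2az1* fell by 0.75 in macrophages and *Macroh2a1* by 0.34 in adipocytes, on the log2 scale.

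Of 12 genes for the transcription and 3′ processing of histone mRNA, 7 rose and 4 fell in adipocytes, 5 and 3 in macrophages, 6 and 3 in myotubes and 5 and 4 in hepatocytes. *Lsm11*, a part of the U7 snRNP that cuts histone pre-mRNA, rose by 1.11 and the exonuclease gene *Eri1* by 0.85 in myotubes, while *Cpsf2* (a subunit of the cleavage complex) fell by 0.99 in adipocytes and *Gon4l* by 0.54 in myotubes. Of 13 histone chaperones, 4 rose and 8 fell in adipocytes, 4 and 4 in macrophages, 2 and 5 in myotubes and 4 and 6 in hepatocytes. *Chaf1b*, of chromatin assembly factor 1, rose by 2.60 in myotubes and *Asf1b* by 1.03 in adipocytes, while *Anp32b* fell by 1.69 in hepatocytes and *Ssrp1*, of the FACT complex, by 1.00 in macrophages.

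Of 22 genes of S phase and mitosis, 4 rose and 7 fell in adipocytes (median -0.20), 0 and 14 in macrophages (-0.66), 5 and 9 in myotubes (-0.38) and 9 and 4 in hepatocytes (0.11). *Rrm2* fell by 2.05 and *Rrm1*, the other subunit of ribonucleotide reductase, by 1.24 in macrophages, while *Ccne1* (cyclin E1) rose by 1.52 and the licensing factor gene *Cdt1* by 0.93 in myotubes. In the controls all 22 were called higher in macrophages than in the mean of the other cell types, against 39.3% of all genes. Genes of this list can have passed the filter through the macrophage libraries, so this count is a description. The count of 0 raised in macrophages was 2 at an unadjusted P below 0.05 (edgeR). Under βOHB, edgeR called no gene of these 4 lists except 3 of the S phase list that fell in myotubes, where it called 2.91% of all genes. There 14 of the 22 were lower at an unadjusted P below 0.05, against 7.01% of all genes. In the same comparison all 4 macrophage markers were lower, with changes of -1.82 for *Csf1r*, -1.63 for *Adgre1*, -1.58 for *Itgam* and -1.55 for *Cd68* (FDR of 0.000403 to 0.0046), and the hepatocyte marker *Alb* was higher through βOHB library 3 (FDR = 0.0397 by edgeR). Their part in the S phase values was not tested.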

How the data were processed

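Total RNA of 36 libraries was sequenced in pairs on a BGISEQ-500. The authors assigned reads with Salmon 1.2.1 to the GENCODE M25 transcripts of GRCm38.p6 and summed them per gene with tximport, and the deposited values are estimated counts, in which library totals of 18366300 to 23221500 (median 22177600) remain. All columns were used, with groups taken from the labels. Symbols, positions and exon lengths came from GENCODE M21 of the same build (54094 genes matched), and promoters from RefSeq.

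After rounding, edgeR 4.0.16 under R 4.3.3 was used (quasi-likelihood test after TMM scaling, 1 mean per group over all 36 libraries, Benjamini-Hochberg adjustment over 15340 genes, FDR below 0.05, genes over 1 CPM in at least 6 libraries). CPM values are TMM-scaled. Class sums replaced the members in a second fit of 15320 rows. Each treatment was compared with the control and with the other compound of the same cell type, and the controls and responses of each cell type with the mean of the other 3. On simulated counts for butyrate against control in myotubes over the 15340 tested genes, 69% of 1.5-fold and 83% of 2-fold changes were recovered, with 6 false calls beside 200 changed genes. No replicate was a repeat of another (chi-square per gene 2.65 to 43.8 over 36 pairs).

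The members and lists were chosen with earlier results of these data known. Named genes were *H1f0* and *H2bc6*, the 2 members of each class highest per kb, the 3 members of smallest P on each side of each butyrate comparison, members raised in 1 cell type and lowered in another, those differing between cell types (all if 10 or fewer, else 3 on each side), and the 3 highest below the filter. From each list other than the cell type markers, up to 2 raised and 2 lowered genes of smallest P under butyrate were named. Other members named for completeness (*H1f1*, *H1f5*, *H2ac6*, *H2ac18*, *H2bc8*, *H2bc9*, *H2bc23*, *H2bu2*, *H3c2* and *H3c7*) and the macrophage and hepatocyte markers in myotubes were chosen after their values were seen.

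Alternatives were limma-voom (limma 3.58.1), DESeq2 1.42.0, RLE scaling, library totals alone, no filter, more than 20 counts in 6 libraries, P below 0.001, a fit within the 9 libraries of 1 cell type, blocking on the replicate number, leaving out each library, and sums without their highest member. The sums without *H2bc6*, the filter without butyrate libraries and leaving out 3 myotube libraries were added after seeing the data.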

Additional observations from a re-analysis of the deposited data

Results flagged for a closer look

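The response to butyrate differed between cell types by a test of the difference itself for the following sums and genes, each as the log2 change in a cell type minus the mean change of the other 3, with edgeR's FDR over all rows tested.

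For the H1 sum the difference was 0.46 in adipocytes (FDR = 0.000508), 1.48 in macrophages (5.61e-13), -1.19 in myotubes (6.14e-11) and -0.76 in hepatocytes (2.28e-07). H2A gave 1.08 in adipocytes (6.73e-11), -0.40 in macrophages (0.00042) and -0.50 in hepatocytes (0.000134). H2B gave 1.19 in adipocytes (2.81e-13), 0.47 in macrophages (1.28e-05), -0.46 in myotubes (9.42e-06) and -1.20 in hepatocytes (1.45e-13). The sums of H3 and H4 differed by 0.99 and 0.81 in adipocytes (0.00326 and 0.00175) and by -0.94 and -0.62 in myotubes (0.0021 and 0.0119).

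Among genes in adipocytes, *H2bc6* differed by 1.91 (6.58e-06), *H2bc21* by 1.23 (2.37e-06) and *H2aw* by 0.87 (8.48e-08). In macrophages *H1f2* differed by 1.82 (5.01e-13), *H1f4* by 1.72 (0.0396), *H1f0* by 1.41 (1.08e-15), *H2bc6* by 1.26 (0.00643), *H2bc4* by 0.83 (5.04e-10), *H2aw* by 0.53 (0.000108) and *H2ac24* by -0.74 (0.000845). The *H1f4* value rests on controls near the limit of detection in macrophages and hepatocytes, so its size is uncertain. Myotubes showed smaller rises of *H1f0* (-1.14, 7.92e-14) and *H1f2* (-1.09, 1.36e-08). The value of *H1f3* there was -2.78, but it averages in hepatocytes, whose controls held 0, 0 and 0.177 CPM, so its size depends on a prior count and is not read further. The changes of *H1f3* against control were 5.52 in adipocytes, 3.78 in macrophages and 1.95 in myotubes. Hepatocytes gave -1.78 for *H2bc6* (0.0196), -1.18 for *H1f2* (3.07e-09), -0.75 for *H2bc4* (2.18e-09), -0.67 for *H2aw* (5.08e-05), -0.60 for *H1f0* (2.68e-08) and 0.79 for *H1f10* (0.0464), the last lost with limma-voom, with library totals and without any 1 of 13 libraries. The macrophage difference of *H2ac24* is a fall set against small changes elsewhere, that of *H2bc4* in hepatocytes a fall set against rises in adipocytes and macrophages.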

How the results depend on the processing

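Depth limits the lowest genes, above all H3 and H4 in hepatocytes, and 46 members below the filter were not tested. Library totals alone moved the median of all genes under butyrate by 0.20 in macrophages and 0.13 in myotubes (0.21 and 0.20 against βOHB), so that 66.7% instead of 49.0% of the calls in macrophages and 61.7% instead of 49.8% in myotubes were raised, as were 61.7%, 67.0% and 67.0% instead of 50.4%, 49.2% and 50.1% against βOHB in adipocytes, macrophages and myotubes. The replicate numbers did not pair the libraries (correlations of -0.264 to 0.273). Of all recomputed values, 649 counts stayed equal to the main count or within a fixed ratio of it. For 1837 gene values and 1954 sums the side of the threshold was kept, whether or not uncalled values changed sign. A further 22 counts, 10 gene values and 23 sums became called or larger, and 34, 13 and 38 lost the call or shrank. Reversed sums, with a changed sign and a call in either fit, numbered 4. The cause of a change was not tested unless stated.

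Counts over the 25 members follow, except where a setting changed which members were tested. The share of all genes called was not recomputed with no filter or within a cell type, so those counts only describe the calls. With no filter, more members were tested. Under butyrate, adipocytes then had 47 raised (48 raised and 2 lowered against βOHB), macrophages 25 raised and 2 lowered, myotubes 1 lowered (27 raised against βOHB) and hepatocytes 2 lowered. Under βOHB 3 were called in adipocytes, 1 in macrophages and 2 in myotubes, and control levels were higher for 8 in macrophages, 35 in myotubes and 2 in hepatocytes. Within the 9 libraries of a cell type only 16, 10, 20 and 7 members passed the filter, which left 13 raised in adipocytes, 7 in macrophages and 3 in hepatocytes (14, 8 and 3 against βOHB, with 1 lowered in hepatocytes). At P below 0.001, βOHB gave 1 call in adipocytes (*H1f2*), and hepatocytes had 9 raised, or 8 raised and 0 lowered against βOHB. That lowered count was 1 with RLE scaling or limma-voom and 0 with library totals. The replicate block gave 2 lowered in hepatocytes. Limma-voom gave 2 lower control levels in adipocytes, and limma-voom and library totals gave 0 larger responses in hepatocytes. Without 3 myotube libraries with RNA of other cells, which left 1 control library, assumed to vary like the other groups, against 2 butyrate libraries, the count raised in myotubes was 13.

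Sums (log2) reversed without their highest member for H2A in macrophages (-0.72) and H2B in hepatocytes (1.50, and 1.29 against βOHB), and without *H2bc6* for H2B against βOHB in myotubes (-0.014). The same removal of the highest member gave -1.11 for H2A against βOHB in macrophages, 0.20 for H2A and 0.74 for H3 in myotubes, and 1.75 for H3 and 0.57 for H4 in hepatocytes (H4 0.65 against βOHB), and leaving out *H2bc6* gave 0.059 for H2B in myotubes and -0.15 against βOHB in hepatocytes. At P below 0.001 the call was gained for βOHB on H1 in adipocytes (-0.33) and on H2A in macrophages (0.30), and lost for H2A in macrophages (0.18), H3 against βOHB in myotubes (0.46), and in hepatocytes for H2B (-0.19), H4 (0.90) and, against βOHB, H3 (1.01) and H4 (0.95). With no filter it was gained for βOHB on H1 in adipocytes (-0.33) and for H3 in hepatocytes (0.96), and lost for H2A in macrophages (0.17) and H2B in hepatocytes (-0.18). Library totals gave calls for H3 in myotubes (0.45) and H2A against βOHB in hepatocytes (0.22), and none for H2B in hepatocytes (-0.12). Limma-voom gave a call for H3 in myotubes (0.30) and none in hepatocytes for H4 (0.92) or H3 against βOHB (1.17). DESeq2 called H3 in hepatocytes (0.97). The 9 libraries alone called H3 in myotubes (0.37) and, in hepatocytes, H2A (0.18, and 0.21 against βOHB) and H3 (1.02), but not H2B (-0.12). The replicate block called H3 in hepatocytes (0.94).

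The filter itself fixes part of the member counts of control levels. Among these levels, no filter lost the calls for H2A in myotubes (0.15) and H1 in hepatocytes (-0.17) and gave one for H3 in macrophages (-0.44), as DESeq2 did (-0.46). The block lost H2A in adipocytes (0.18) and H1 in hepatocytes (-0.14) and called H3 in macrophages (-0.83). The block changed no other of the sums' or counts' calls.

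Leaving out each library in turn, the members lowered against βOHB ranged from 0 to 1 in hepatocytes (2 with all libraries; 0 without βOHB library 2 or butyrate library 1) and in myotubes (1 without butyrate library 3), those lowered against control from 1 to 2 in hepatocytes (2 without control 1), the larger responses in hepatocytes from 0 to 1, the smaller responses in macrophages from 1 to 2, and the lower controls in adipocytes from 1 to 2. Sums ranged from 0.64 to 1.44 (H3 against βOHB, hepatocytes), 0.37 to 0.56 (H3 against βOHB, myotubes), -0.24 to -0.16 (H2B, hepatocytes), 0.69 to 1.05 (H4, hepatocytes), 0.12 to 0.22 (H2A, macrophages), 0.22 to 0.42 (H3, myotubes), -0.27 to -0.10 (H2A response, myotubes, called without butyrate 3), and for control levels 0.14 to 0.28 (H2A, adipocytes), -0.20 to -0.11 (H1, hepatocytes) and -0.53 to -0.41 (H3, macrophages).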
